A study of Homo sapiens with 9 samples.

Results

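Serine synthesis and folate one-carbon metabolism were followed through the transcripts of 9 enzymes, PHGDH, PSAT1, PSPH, SHMT1, SHMT2, MTHFD1, MTHFD2, MTHFD1L and ALDH1L2. They were listed by gene name, with earlier results of these data known. The array holds 12 probes for them among 42384 probes with a value on every array. MTHFD1L has 3 probes, SHMT1 has 2, and each of the others has a single probe. The cells were HEK293, a human embryonic kidney line, infected with a retrovirus. KD3 cells carried shRNA 3 and KD4 cells shRNA 4, both directed at SmcHD1, while CTL cells carried NC5, the control shRNA. SmcHD1 is a chromatin protein of the SMC family. All cells were stably infected populations selected with puromycin and grown in DMEM with serum, and none received any further treatment. Each group was measured on 3 one-color arrays. The methods call these biological triplicates, but no source used here says whether they came from separate infections, so that the p-values measure the spread between these arrays only.

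Serine is made from the glycolytic intermediate 3-phosphoglycerate in the cytosol. PHGDH oxidizes it, PSAT1 transfers an amino group from glutamate, and PSPH removes the phosphate. Serine then donates a carbon to tetrahydrofolate and becomes glycine, through SHMT1 in the cytosol and SHMT2 in mitochondria. The carbon passes between oxidation states on parallel routes. MTHFD1 carries the steps between methylene-tetrahydrofolate and formate in the cytosol, whereas mitochondria divide them between MTHFD2 and MTHFD1L, which releases formate. ALDH1L2 instead oxidizes the carbon to carbon dioxide in mitochondria. In proliferating cells the mitochondrial route usually supplies formate for purine and thymidylate synthesis. Several of these genes are known targets of ATF4, the transcription factor of the amino acid response.

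All 12 probes of the enzymes were well above background on all 9 arrays. The values given are log2 signals after quantile normalization over the arrays, and a log2 difference of -1 is a halving. A difference passed the test when its adjusted p from limma was under 0.05, with Benjamini-Hochberg adjustment over 32276 tested probes. The methods also ask for a fold of at least 1.8, a log2 difference of 0.848, which is given separately. The brightest tested probe stands for a gene. In these bulk arrays fewer cells with a transcript and less transcript per cell cannot be told apart.

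The SMCHD1 transcript was lower on every knock-down array than on any CTL array. Its brightest probe gave 11.20, 11.37 and 11.22 in CTL, 10.40, 10.16 and 10.32 in KD3, and 9.63, 9.80 and 9.77 in KD4. An array detected between 75.1% and 79.8% of its probes above background, and 0 spots were saturated. All 7 genes listed as expressed in HEK293 were detected and tested, and of 9 genes listed for blood, liver, endothelium and muscle 6 were tested as well. By their brightest probes 4 of the 7 fell in both knock-downs, against 8.5% of all tested genes. These were PAX2 (-2.41 in KD3 and -2.65 in KD4), NEFM (-1.21 and -1.24), INA (-0.84 and -0.61) and NEFL (-0.33 and -0.41), though the dimmer PAX2 probe differed by -0.01 and 0.06. KRT18 rose in KD4 by 0.34 (limma, adjusted p = 0.018), and VIM and KRT8 passed the test in neither. Of the 6 from other tissues, ACTA1 rose in both, by 0.71 and 0.65 (limma, adjusted p = 3.6e-04 and adjusted p = 4.5e-04). APOA2, a dim probe, differed by 0.91 in KD3 and -0.72 in KD4 (limma, adjusted p = 0.0034 and adjusted p = 0.0075). The others of the 6 passed in neither. The part of these markers in the results was not tested.

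Of the 9 enzymes, 4 fell in KD3 and 5 in KD4, and 0 rose in either. Of all tested genes, 10.5% fell and 9.47% rose in KD3, and 14.7% fell and 13.4% rose in KD4. PHGDH, PSAT1, PSPH and MTHFD1L fell in both, 44.4% of the enzymes, against 8.5% of all tested genes. Both comparisons use the same CTL arrays. Since the enzymes were chosen with earlier results known, these shares describe the list and do not test it. In KD3 the median log2 difference of the 9 enzymes was -0.199, where all tested genes had 0.00906. In KD4 it was -0.501, where all tested genes had 0.0437. With the fold of 1.8 as well, 0 enzymes passed in KD3, against 3.35% of all tested genes. Unadjusted, 4 enzymes in KD3 had a p under 0.05 with limma, against 32.6% of all tested genes, and 4 with the unequal variance test that the methods name, against 23.1%. In KD4 these were 6 against 40% and 5 against 29.9%. After adjustment the unequal variance test kept 0 of the enzymes in KD3, against 1.67% of all tested genes, and only MTHFD1L in KD4, against 6.12%. MTHFD1L passed with that fold in KD4, against 4.59% of all tested genes. That single call was lost without KD4 replicate 3 or CTL replicate 2, while without CTL replicate 1 there were 2. Shares of all tested genes were not taken with an array left out.

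**Figure D1:**
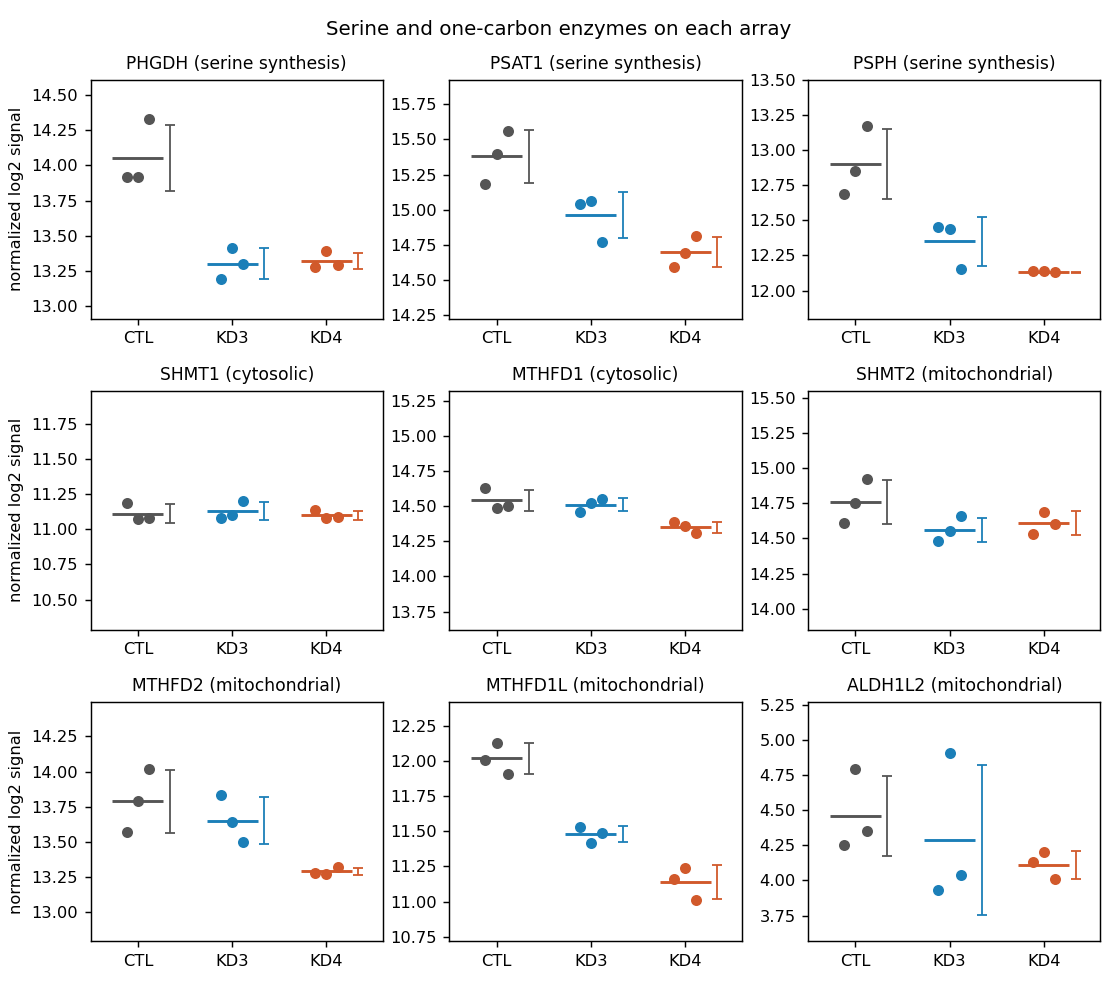
Normalized log2 signal of the brightest probe of each enzyme on each of the 9 arrays, with points for arrays, a bar for the group mean and an error bar of 1 SD (n = 3). Each panel spans the same log2 range. PHGDH, PSAT1, PSPH and MTHFD1L lie below all CTL arrays in both knock-downs, and SHMT1 overlaps in all groups.

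All 3 enzymes of serine synthesis fell in both knock-downs. PHGDH, the first and committed enzyme of the route, gave 13.92, 13.92 and 14.33 in CTL, 13.19, 13.41 and 13.30 in KD3, and 13.28, 13.39 and 13.29 in KD4. The knock-down arrays did not overlap with CTL, and the ranges of KD3 and KD4 lay over each other. The log2 fold change was -0.76 in KD3 (SE 0.119, limma, adjusted p = 0.003), which left 59.2% of the CTL signal. In KD4 it was -0.73 (limma, adjusted p = 0.0025), which left 60.1%. Groups that did not overlap were common on these arrays, with 35.7% of all tested genes in KD3 and 44.6% in KD4 against CTL. Among the 9 enzymes 4 and 7 did not overlap, all of them lower.

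PSAT1, the aminotransferase of the second step, gave 15.18, 15.40 and 15.56 in CTL, 15.04, 15.06 and 14.77 in KD3, and 14.59, 14.69 and 14.81 in KD4. Its groups did not overlap with CTL either, though KD3 lay close to the lowest CTL array. The log2 fold change was -0.68 in KD4 (SE 0.121, limma, adjusted p = 0.004). In KD3 it was -0.43 (limma, adjusted p = 0.039), and 8 of the 9 fits that omitted an array lost this call (over the 9 fits the value ran from -0.52 to -0.33, with a highest adjusted p of 0.12). It was lost as well with scaling to the 75th percentile (adjusted p = 0.06), without a filter on dim probes (adjusted p = 0.068) and with KD3 and CTL fitted alone (adjusted p = 0.077).

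PSPH, the phosphatase that completes serine, gave 12.69, 12.85 and 13.17 in CTL, 12.45, 12.44 and 12.15 in KD3, and 12.14, 12.14 and 12.13 in KD4. The KD4 arrays were nearly identical to each other and just below the lowest KD3 array. The log2 fold change was -0.56 in KD3 (SE 0.131, limma, adjusted p = 0.019) and -0.77 in KD4 (adjusted p = 0.0033). Without KD3 replicate 3 the value in KD3 was -0.46 (adjusted p = 0.06), and with KD3 and CTL fitted alone its adjusted p was 0.052.

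On all 3 serine synthesis probes the highest CTL array was replicate 3. The same array was the highest of CTL for 11 of 12 genes of the amino acid response, such as ASNS. Its part in the results was not tested beyond leaving it out. Without it, PHGDH differed by -0.62 in KD3 (limma, adjusted p = 0.0043) and -0.60 in KD4 (adjusted p = 0.0037). PSPH then differed by -0.42 (adjusted p = 0.043) and -0.63 (adjusted p = 0.0075), and PSAT1 by -0.34 (adjusted p = 0.12) and -0.59 (adjusted p = 0.015). The number of enzymes past the test was then 3 in KD3 and 5 in KD4, and the share of all tested genes without this array was not taken.

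The cytosolic folate enzymes did not pass the test in either knock-down. SHMT1, the cytosolic hydroxymethyltransferase, gave 11.19, 11.07 and 11.08 in CTL, 11.08, 11.10 and 11.20 in KD3, and 11.14, 11.08 and 11.09 in KD4. All groups overlapped, and the log2 difference was 0.01 in KD3 (95% interval from -0.14 to 0.17) and -0.01 in KD4 (from -0.16 to 0.14). These intervals exclude a change as large as the PHGDH estimates. The dimmer SHMT1 probe pointed upwards, with 0.14 in KD3 (limma, adjusted p = 0.3) and 0.25 in KD4 (adjusted p = 0.067), so that the SHMT1 probes do not give the same picture in KD4.

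MTHFD1, the trifunctional cytosolic enzyme, gave 14.63, 14.49 and 14.50 in CTL, 14.46, 14.52 and 14.55 in KD3, and 14.39, 14.36 and 14.31 in KD4. KD3 overlapped with CTL, whereas all KD4 arrays lay below. The log2 difference was -0.03 in KD3 (limma, adjusted p = 0.81). In KD4 it was -0.19 (95% interval from -0.34 to -0.03, limma, adjusted p = 0.069).

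The mitochondrial enzymes did not move as a block. MTHFD1L, the synthetase that frees formate, gave by its brightest probe 12.01, 12.13 and 11.91 in CTL, 11.53, 11.42 and 11.49 in KD3, and 11.16, 11.24 and 11.01 in KD4. The 3 groups were separate, with KD4 lowest. The log2 fold change was -0.54 in KD3 (SE 0.0874, limma, adjusted p = 0.0037) and -0.88 in KD4 (adjusted p = 2.5e-04), which left 69.0% and 54.3% of the CTL signal. Another MTHFD1L probe differed by -0.42 in KD3 (limma, adjusted p = 0.005) and -0.41 in KD4 (adjusted p = 0.004). The remaining one differed by -0.63 (adjusted p = 4.4e-04) and -0.92 (adjusted p = 5e-05). All 3 probes therefore fell in both knock-downs, but in KD4 the probe that differed by -0.41 did not reach the fold of 1.8.

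Since enzymes of this pathway are known ATF4 targets, RefSeq promoters (GRCh38.p14, from 250 bases before to 50 bases after each start) were searched on both strands for the composite motif that ATF4 binds with C/EBP proteins, spelled TGATGNAA. It lies in 3.62% of all 35116 promoters. This share counts promoters, as does the share of a second motif below. A gene was taken to hold a motif if any of its promoters did, so that counts of genes are on another measure. Of the 9 enzymes 6 had a promoter in the table and 1 held the motif, MTHFD1L, whose 3 probes all fell in both knock-downs. PHGDH and PSAT1, which also fell, had promoters without it, as had SHMT1, MTHFD1 and MTHFD2. PSPH, SHMT2 and ALDH1L2 had no entry. Of the 12 amino acid response genes, 11 had a promoter and 4 held it. Of these, ASNS and CHAC1 fell in both knock-downs. ATF3 differed by -0.20 in KD3 and -0.43 in KD4 by its brightest probe (limma, adjusted p = 0.31 and adjusted p = 0.031), the latter lost in 10 of 19 alternatives. CEBPG differed by -0.32 and -0.37 (limma, adjusted p = 0.11 and adjusted p = 0.052). TRIB3, CEBPB, SESN2 and DDIT4 of the same list fell in both knock-downs as well, and none of them was found to hold the motif. The windows of all 5 genes that held it are given on the strand of the gene, with the motif in capitals (for CHAC1 its reverse complement).
MTHFD1L, chr6:150866346-150866375, plus strand: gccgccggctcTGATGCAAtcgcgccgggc
ASNS, chr7:97872458-97872487, minus strand: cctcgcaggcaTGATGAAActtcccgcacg
CHAC1, chr15:40953251-40953280, plus strand: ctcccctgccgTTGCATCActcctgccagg
ATF3, chr1:212565205-212565234, plus strand: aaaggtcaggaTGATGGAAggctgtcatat
CEBPG, chr19:33374060-33374089, plus strand: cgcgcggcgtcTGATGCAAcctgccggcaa
The E-box CACGTG, which shares no stretch with that motif in these windows, lies in 7.26% of all promoters and in those of MTHFD1 and MTHFD1L among the 6. A match describes these letters and not a bound site, and no binding was measured here. Only these spellings within these promoter bases were searched, so that a gene without a match may hold a site elsewhere or in another spelling.

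MTHFD2, the mitochondrial dehydrogenase and cyclohydrolase, gave 13.57, 13.79 and 14.02 in CTL, 13.83, 13.64 and 13.50 in KD3, and 13.28, 13.27 and 13.32 in KD4. KD3 overlapped with CTL, and KD4 lay below both. The log2 fold change was -0.50 in KD4 (SE 0.124, limma, adjusted p = 0.017) and -0.14 in KD3 (95% interval from -0.42 to 0.14, adjusted p = 0.49). The direct difference between KD4 and KD3 was -0.36 (limma, adjusted p = 0.16), so that the knock-downs were not shown to differ. Without KD4 replicate 2 the value in KD4 was -0.49 (adjusted p = 0.052), and without CTL replicate 3 it was -0.39 (adjusted p = 0.049).

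SHMT2, the mitochondrial hydroxymethyltransferase, gave 14.61, 14.75 and 14.92 in CTL, 14.48, 14.55 and 14.66 in KD3, and 14.53, 14.69 and 14.60 in KD4. Its groups overlapped, with log2 differences of -0.20 in KD3 (95% interval from -0.42 to 0.02, limma, adjusted p = 0.19) and -0.15 in KD4 (from -0.37 to 0.06, adjusted p = 0.26). ALDH1L2, the mitochondrial formyltetrahydrofolate dehydrogenase, was scattered, with 4.25, 4.79 and 4.35 in CTL, 3.93, 4.91 and 4.04 in KD3, and 4.13, 4.20 and 4.01 in KD4. Its differences of -0.17 and -0.35 had 95% intervals from -0.74 to 0.39 in KD3 and from -0.92 to 0.22 in KD4, which include both 0 and the PSAT1 estimates.

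**Figure D2:**
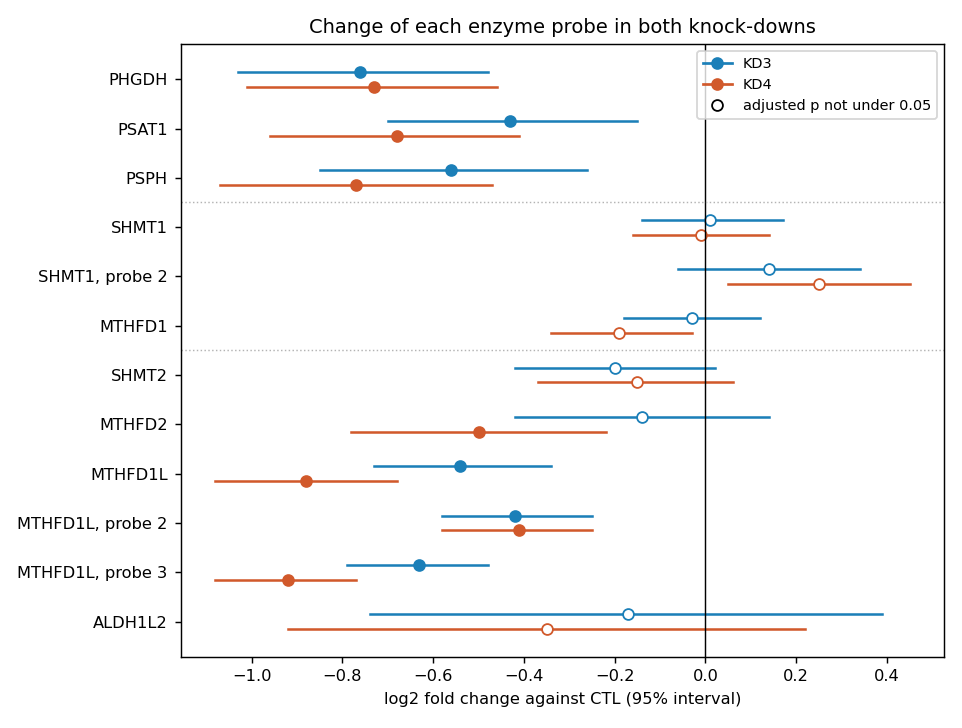
Log2 fold change against CTL of each of the 12 probes, with its 95% interval from limma over 9 arrays (KD3 blue, KD4 orange). Open circles mark an adjusted p that is not under 0.05. The serine synthesis enzymes and all MTHFD1L probes lie below 0 in both knock-downs, the SHMT1 probes lie close to or above 0, and the intervals of ALDH1L2 are the widest.

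Set out by compartment, 1 of 4 mitochondrial enzymes fell in KD3 and 2 of 4 in KD4, where 10.5% and 14.7% of all tested genes fell. Of the 5 cytosolic enzymes 3 fell in each, which were the serine synthesis enzymes in both cases. The median log2 difference of the mitochondrial enzymes was -0.185 in KD3 and -0.426 in KD4, and that of the cytosolic enzymes -0.425 and -0.683. The cytosolic median is the value of PSAT1, since 3 of those 5 enzymes belong to serine synthesis. For the 2 cytosolic folate enzymes alone it was -0.00885 in KD3 and -0.0997 in KD4, where all tested genes had 0.00906 and 0.0437. The enzymes that fell lay in both compartments.

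To ask whether a mitochondrial enzyme moved apart from its cytosolic counterpart, the difference of their log2 signals was taken within each array. The 6 knock-down arrays of both groups were then pooled and set against the 3 CTL arrays by a two-sided exact permutation test. In this exact test p = 0.0119 is the smallest value possible. MTHFD1L fell relative to MTHFD1 by differences of -0.51 in KD3 and -0.69 in KD4, on 6 of 6 knock-down arrays (exact p = 0.0119, adjusted p = 0.0357 over 3 pairs). By its brightest probe MTHFD1L reached at most 11.53 on the knock-down arrays and at least 11.91 in CTL. MTHFD1 ran only from 14.31 to 14.63 over all arrays, a narrower span than that gap. The smallest p was therefore fixed in advance by the single-gene values, and only the sizes are described for this pair. SHMT2 against SHMT1 gave -0.21 and -0.14 (exact p = 0.0833, adjusted p = 0.125). MTHFD2 against MTHFD1 gave -0.11 and -0.31 (exact p = 0.262, adjusted p = 0.262). With the mean over all probes of a gene the SHMT2 value was -0.27 with an exact p of 0.0119, and the SHMT1 probes differ in direction as described.

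**Figure D3:**
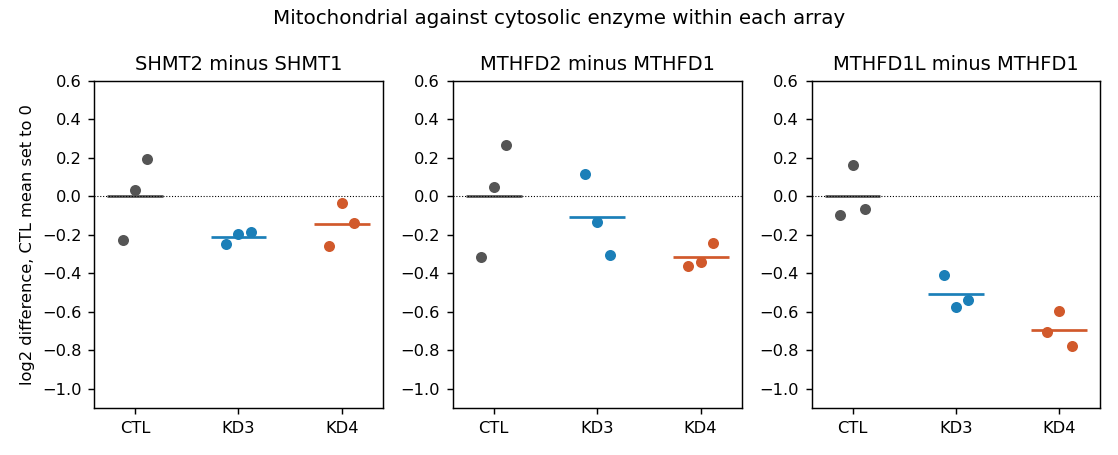
Log2 signal of a mitochondrial enzyme minus that of its cytosolic counterpart within each array, with the CTL mean set to 0 and a bar for each group mean (n = 3 arrays). For MTHFD1L minus MTHFD1 all 6 knock-down arrays lie below the 3 CTL arrays, while the other pairs overlap.

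Between the knock-downs themselves, 0 of the 9 enzymes passed the test by limma, against 2.49% of all tested genes. Unadjusted, 3 of them had a p under 0.05 with limma and 2 with a test of unequal variances. The share of all tested genes at this unadjusted threshold was not taken between the knock-downs, so that nothing is read from these counts. The arrays of KD4 and KD3 did not overlap for 4 enzymes, all lower in KD4, and for 28.9% of all tested genes. The direct differences, KD4 minus KD3, ran from -0.36 for MTHFD2 to 0.04 for SHMT2. For PHGDH it was 0.02 (95% interval from -0.25 to 0.29). For MTHFD1L it was -0.34 (from -0.54 to -0.15, limma, adjusted p = 0.081), and with normexp background correction it passed (-0.34, adjusted p = 0.035).

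The arrays lay on 2 slides, each holding arrays of all groups. Within slide 1 PHGDH differed by -0.72 in KD3 and -0.78 in KD4, and within slide 2 by -0.67 and -0.63. PSAT1 differed by -0.42 and -0.73 on slide 1 and by -0.28 and -0.59 on slide 2. PSPH differed by -0.57 and -0.88 on slide 1 and by -0.39 and -0.55 on slide 2. MTHFD1L differed by -0.60 and -0.90, and by -0.50 and -0.85. MTHFD2 in KD4 differed by -0.60 and -0.29. Slide 1 held 2 CTL, 1 KD3 and 2 KD4 arrays, and slide 2 held 1 CTL, 2 KD3 and 1 KD4 array. Wherever these 5 genes had passed the test, their knock-down arrays all lay below CTL. The same direction on both slides was therefore fixed in advance, and only the sizes are described.

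Over the 9 arrays the serine synthesis enzymes followed each other closely, with a Pearson r of 0.976 between PSAT1 and PSPH, 0.916 between PHGDH and PSPH, and 0.859 between PHGDH and PSAT1. MTHFD2 followed PSAT1 with an r of 0.901, whereas SHMT1 had an r of -0.292 with PSAT1. These values describe 9 arrays in 3 groups and include the differences between groups. OGA had the pattern most like that of PSAT1 (r = 0.998). ASNS, the asparagine synthetase, had the pattern most like that of PSPH among all tested genes (r = 0.995 over 9 arrays) and was among the 3 named genes most like PSAT1 (r = 0.986). For PSPH the next were ZBED3 (r = 0.992) and HDHD2 (r = 0.991), and for PSAT1 SLC48A1 (r = 0.987) lay above ASNS. The genes nearest to PHGDH were PRODH (r = 0.992), SEPTIN4 (r = 0.99) and MORN4 (r = 0.989), and those nearest to MTHFD1L were MIPEP (r = 0.994), DIXDC1 (r = 0.992) and MLH3 (r = 0.991). These nearest genes were picked as the highest r over 26862 tested genes on 9 arrays, so that no link between genes is read from them.

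Of 62 other genes of serine, glycine and folate metabolism and of the amino acid response, 60 were tested. In KD3 8 rose and 12 fell, and in KD4 8 rose and 19 fell. That is 33.3% and 45.0% of the list past the test, against 19.9% and 28.1% of all tested genes. The median log2 difference was -0.0354 in KD3 and -0.142 in KD4. DMGDH and BHMT were too dim to be tested.

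In the amino acid response list of 12 genes, 6 fell in KD3 and 0 rose, while 9 fell in KD4. That is 50% and 75% of the list lower, against 10.5% and 14.7% of all tested genes. This list too was chosen with earlier results known, so that its shares are described only. The 1 gene that rose in KD4 was ATF5, by 0.26 (limma, adjusted p = 0.047), a call lost in 14 of 19 alternatives, among them 7 of the 9 fits without an array (highest adjusted p = 0.15). The median log2 difference of the list was -0.523 in KD3 and -0.644 in KD4, where all tested genes had 0.00906 and 0.0437. ASNS, which makes asparagine, gave 15.92, 16.12 and 16.60 in CTL, 15.59, 15.56 and 15.14 in KD3, and 15.04, 15.01 and 15.20 in KD4. It fell by 0.78 in KD3 (limma, adjusted p = 0.018) and by 1.13 in KD4 (adjusted p = 0.0026), and without KD3 replicate 3 the value in KD3 was -0.64 (adjusted p = 0.058). CHAC1, which degrades glutathione, fell by 1.25 in KD3 (limma, adjusted p = 0.0043) and by 2.17 in KD4 (adjusted p = 2.2e-04). DDIT4, an inhibitor of mTORC1, fell by 0.96 (adjusted p = 2.8e-04) and by 1.59 (adjusted p = 1.8e-05). SESN2, a leucine sensor, fell by 0.61 (adjusted p = 0.0088) and by 0.93 (adjusted p = 9.2e-04). The ATF4 transcript itself fell by 0.32 in KD4 (limma, adjusted p = 0.017) and differed by -0.16 in KD3 (adjusted p = 0.2). Without KD4 replicate 3 the ATF4 value in KD4 was -0.30 (adjusted p = 0.06), and without KD4 replicate 2 it was -0.32 (adjusted p = 0.051).

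Of the 48 tested genes outside the amino acid response, 8 rose and 6 fell in KD3, or 16.7% and 12.5%, against 9.47% and 10.5% of all tested genes. In KD4 7 rose and 10 fell, or 14.6% and 20.8%, against 13.4% and 14.7%. SLC25A32, the carrier that brings folate into mitochondria, gave 10.22, 10.62 and 10.45 in CTL, 11.61, 11.55 and 11.47 in KD3, and 11.51, 11.44 and 11.54 in KD4. It was 2.17-fold higher in KD3 (limma, adjusted p = 2.1e-04) and 2.10-fold higher in KD4 (adjusted p = 2e-04). SFXN1, a mitochondrial serine transporter, gave 7.46, 7.82 and 7.48 in CTL, 8.29, 8.42 and 8.64 in KD3, and 8.80, 9.03 and 8.59 in KD4. It was 1.82-fold higher in KD3 (limma, adjusted p = 0.0046) and 2.33-fold higher in KD4 (adjusted p = 6.6e-04). Both were higher on every knock-down array than on any CTL array. SFXN2 and SFXN3, of the same transporter family, fell in KD4 by 0.37 and by 0.46 (limma, adjusted p = 0.01 and adjusted p = 0.033). The call of SFXN3 was lost in 9 of 19 alternatives, among them 5 of the 9 fits without an array (highest adjusted p = 0.1), and its value was -0.27 with normexp.

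MAT2B and PGAM1 rose most in the list. MAT2B, the regulatory subunit of methionine adenosyltransferase, rose by a log2 difference of 1.87 in KD3 and 1.96 in KD4 (limma, adjusted p = 7.6e-06 and adjusted p = 3.8e-06), and its other probe by 1.98 and 1.97. PGAM1, the glycolytic mutase that uses up 3-phosphoglycerate, rose by 1.65 and 1.55 (limma, adjusted p = 2.7e-05 and adjusted p = 3.5e-05), and its other probe by 1.45 and 1.51. GAPDH, also of glycolysis, differed by -0.13 and -0.09 (limma, adjusted p = 0.34 and adjusted p = 0.48).

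Among genes of glycine and serine use, GLDC, the decarboxylase of the glycine cleavage system, fell by 0.50 in KD3 and by 0.73 in KD4 (limma, adjusted p = 0.0021 and adjusted p = 2.4e-04). Its partners AMT and GCSH did not pass, with 0.13 and -0.05 in KD3 and -0.25 and -0.21 in KD4. Of the transsulfuration enzymes, which turn serine and homocysteine into cysteine, CTH fell by 0.90 in KD4 (limma, adjusted p = 0.0027) and CBS by 0.59 (adjusted p = 0.011). In KD3 they differed by -0.40 (adjusted p = 0.096) and -0.22 (adjusted p = 0.29).

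Of the 11 other folate enzymes, 3 fell and 0 rose in each knock-down. That is 27.3% lower, against 10.5% of all tested genes in KD3 and 14.7% in KD4, and some of these calls were lost in alternatives. TYMS, which makes thymidylate, differed by 0.04 in KD3 and 0.02 in KD4 (limma, adjusted p = 0.78 and adjusted p = 0.89). MTHFD2L, the other mitochondrial dehydrogenase, and ALDH1L1, the cytosolic counterpart of ALDH1L2, did not pass either, with 0.29 and 0.03 in KD3 and -0.03 and 0.50 in KD4.

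**Figure D4:**
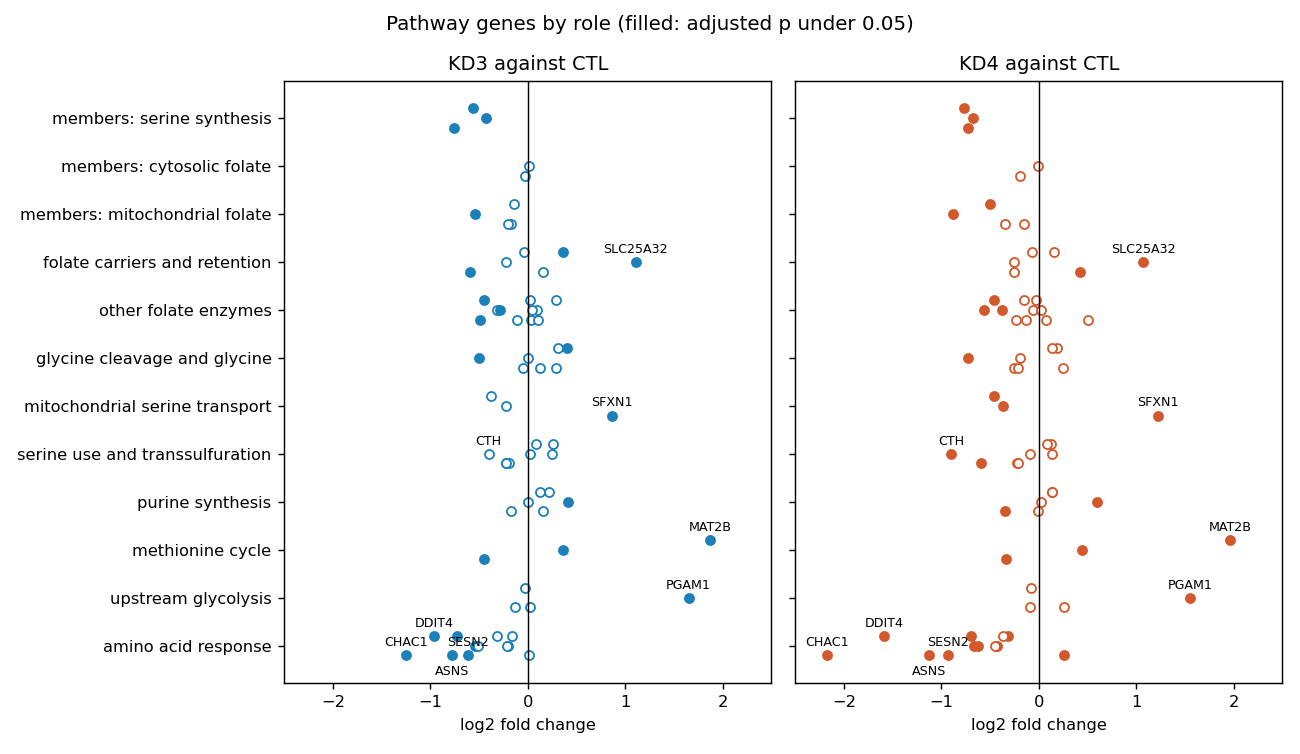
Log2 fold change against CTL of the brightest probe of each enzyme and of the 60 tested pathway genes, by role, in KD3 (left) and KD4 (right); the vertical offset within a role has no meaning. Filled circles passed the test. SLC25A32, SFXN1, MAT2B and PGAM1 lie to the right in both panels, and the serine synthesis enzymes and most of the amino acid response list to the left.

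RefSeq also names pseudogenes after PSAT1 (4), MTHFD2 (7), PSPH (1), SHMT1 (1) and MTHFD1 (1), and whether the probes of these genes also take up their transcripts was not tested. GAPDH, SFXN2, SFXN3, ATF3, CEBPG, ATF5, TRIB3 and CEBPB were named after their values were seen. No pseudogene is named after PHGDH, SHMT2, MTHFD1L or ALDH1L2.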

How the data were processed

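For each array the authors deposited the scanner output of Agilent Feature Extraction 10.10.1.1, whose processed signal is an intensity per spot, already background-subtracted and detrended. They also deposited log2 values quantile normalized over the 9 arrays (written "quintile" in their methods), used here as an alternative. From the intensities, control spots and outlier spots (260 to 634 of 58717 per array) were left out, and log2 signals were quantile normalized and spots of a probe averaged. Against the authors' values these differed by a median of 0.0745. Replicate arrays had a Pearson r of at least 0.99. The number of arrays limits the precision. A probe was tested if all arrays of some group called it well above background. Of 42384 probes, 25413 were named through their RefSeq accession with a gene table of GRCh38.p14. Since the probes were designed on an older build, no probe coordinates are given.

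Groups were compared with limma 3.58.1 in R 4.3.3 (a mean per group, all 9 arrays). The fit was tested on simulated data. The enzymes, lists and tests were chosen with earlier results of these data known. Pathway genes were named if they passed the test with at least 1.8-fold in KD3 or KD4 or belong to a fixed list of 14 genes, apart from those the report says were named after their values were seen. Some genes of that list are not reported here. Alternatives were 75th percentile scaling, normexp (offset 50, on median signals), the authors' values, other filters, the methods' t-test (Benjamini-Hochberg), pairwise fits, replicate or slide blocks, means over probes, and leaving out each array.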

Additional observations from a re-analysis of the deposited data

Results flagged for a closer look

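KD4 and KD3 differed from each other by the direct test in 2 of the results given. SMCHD1 itself was lower in KD4 than in KD3 by its brightest probe, (log2 difference -0.56, limma, adjusted p = 0.019). DDIT4 was lower in KD4 than in KD3 (log2 difference -0.64, limma, adjusted p = 0.014). The DDIT4 difference no longer passed without KD3 replicate 1, KD3 replicate 2 or any single KD4 array, 5 of 9 such fits (highest adjusted p = 0.062).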

How the results depend on the processing

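Of 513 values of single enzymes under alternatives, 489 stayed on their side of the threshold, 23 no longer passed, 1 newly passed and 0 reversed. Most of these values belong to differences that had not passed, among them all between the knock-downs, and so could not be lost. The 23 losses all fell on the 4 calls in KD3 and the 5 in KD4, which had 19 alternatives each. Of the calls in KD3, PSAT1 was the least stable, lost in 13 of 19 alternatives. With the methods' t-test, adjusted, the number of enzymes past the test was 0 in KD3 and 1 in KD4, and for pathway genes it was 1 (KD3), 7 (KD4) and 0 (KD4 against KD3). Of all tested genes 1.67% passed it in KD3 and 6.12% in KD4, so that 1 of 60 pathway genes in KD3 is no more than that share. For the other alternatives below such a share was not taken, and nothing is read from their counts. With only the 2 groups compared, 2 enzymes passed in KD3 and 2 pathway genes between the knock-downs. With an array left out, 2 to 4 enzymes passed in KD3 (2 without KD3 replicate 3), 0 to 2 also reached the fold in KD4, and 0 to 3 pathway genes passed between the knock-downs. Between the knock-downs, normexp gave 1 enzyme and 4 pathway genes, and the authors' values, the stricter filter and means over probes 2 pathway genes each. Means over probes left 0 enzymes past the fold in KD4, and gave SHMT2 minus SHMT1 a change of -0.27 (exact p = 0.0119, unadjusted). With an array left out that change ran from -0.29 to -0.08, and without CTL replicate 1 its unadjusted exact p was 0.0357, the smallest that 6 arrays against 2 can give. The median of the mitochondrial enzymes in KD4 was -0.315 with 75th percentile scaling and -0.308 with normexp, and between the knock-downs -0.162 with 75th percentile scaling. With an array left out it ran from -0.335 to -0.153 in KD3, from -0.534 to -0.345 in KD4 and from -0.323 to -0.167 between the knock-downs. The cause was not tested. Same-numbered arrays did not deviate together (r from -0.0775 to 0.143), and with the replicate number as a block 0 pathway genes passed between the knock-downs and PSAT1 in KD3 had an adjusted p of 0.069. With scaling to the 75th percentile, 47.6% of calls in KD4 were lower, against 52.4%, and 42.7% against 60.2% between the knock-downs.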
